A study of Mus musculus with 2 samples.

Results

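The sympathoadrenal transcription factors described here are 8 genes listed by name, Phox2a, Hand1, Hand2, Gata2, Gata3, Insm1, Isl1 and Tfap2b, out of 55536 annotated genes in each library's table. They form a list of names, and the rule that gives it uses no measured value, although earlier results of these data were known when it was chosen. All 8 were found in the gene tables, and their 28 annotated transcripts were found in both kinds of transcript table. The RNA came from adrenal glands of 2 adult female mice of the B6CASTF1/J strain, an F1 hybrid of the laboratory strain C57BL/6J (B6) and the wild-derived CAST strain, aged 8 to 10 months. The labels number the animals 3 (replicate 2) and 1 (replicate 1), and no treatment, transgene or deletion is given for either. Each library was made from 300 ng of total RNA with ERCC spike-in RNA added. Both animals form 1 group, so the data give the level of each factor in the adult gland and the distance between 2 animals of the same kind.

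The adrenal medulla is made of chromaffin cells, which descend from the neural crest and share a precursor lineage with sympathetic neurons. In that lineage Phox2a, Hand2, Gata3, Insm1, Isl1 and Tfap2b help to turn on and keep the genes that make, store and release catecholamines, such as Th (tyrosine hydroxylase) and Dbh (dopamine beta-hydroxylase). Several of these factors also work in cells outside the medulla: Gata2 in endothelial and mast cells, Gata3 in T cells, Isl1 in pancreatic islets and motor neurons, and Tfap2b in the kidney.

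The libraries held 34319787 expected counts in replicate 2 and 40453707 in replicate 1, estimated numbers of reads or read pairs per gene. The 8 genes took 4440 counts in replicate 2, which is 0.0130% of gene counts (95% Wilson interval 0.0126% to 0.0134%), and 5174 counts in replicate 1, which is 0.0128% (0.0125% to 0.0132%). A count of 3, taken as the limit of detection, was worth 0.0876 CPM, a count scaled to library depth, in replicate 2 and 0.0743 CPM in replicate 1, and each of the 8 genes stood far above it. Intervals of this kind cover counting error only. Levels below are TPM values, a share of all transcripts in the library computed after dividing counts by gene length, and very abundant small noncoding RNAs take part in the scaling here. In a bulk library, fewer cells of a type and less RNA per cell cannot be told apart.

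All 8 factors were present at 1 TPM or more in both animals. Their median level was 6.25 TPM, close to the 6.75 TPM that was the median of 16135 nuclear protein-coding genes counted in both animals. The levels spanned 6.20-fold, with Hand2 at the top and Isl1 at the bottom. In the second, index-based set of estimates Gata2 averaged 13.2 ± 2.70 TPM and Hand2 12.2 ± 1.31 TPM (SD, n = 2), so Gata2 came first there. Phox2a also came above Gata3 there, and Hand1 above Tfap2b. Hand2 stood at percentile 68.8 of those protein-coding genes, Gata2 at 62.4, Gata3 at 57.0, Phox2a at 55.6, Tfap2b at 40.2, Hand1 at 38.6, Insm1 at 36.4 and Isl1 at 33.5. Hand2, Gata2, Gata3 and Phox2a therefore lay above the middle of the protein-coding genes, and the other 4 lay below it. Not every step in the order was larger than the spread between the animals. The ranges of Gata2 and Gata3 overlapped, as did those of Gata3 and Phox2a and those of Tfap2b and Hand1. Those of Hand2 and Gata2, Phox2a and Tfap2b, Hand1 and Insm1, and Insm1 and Isl1 did not overlap. Each range spans only the TPM values of the 2 animals. The deposited bounds overlapped within each library for Hand1 and Insm1 and for Insm1 and Isl1, and within replicate 2 only for Hand2 and Gata2. In the index-based estimates the ranges of Hand2 and Gata2 and those of Insm1 and Isl1 overlapped too.

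**Figure D1:**
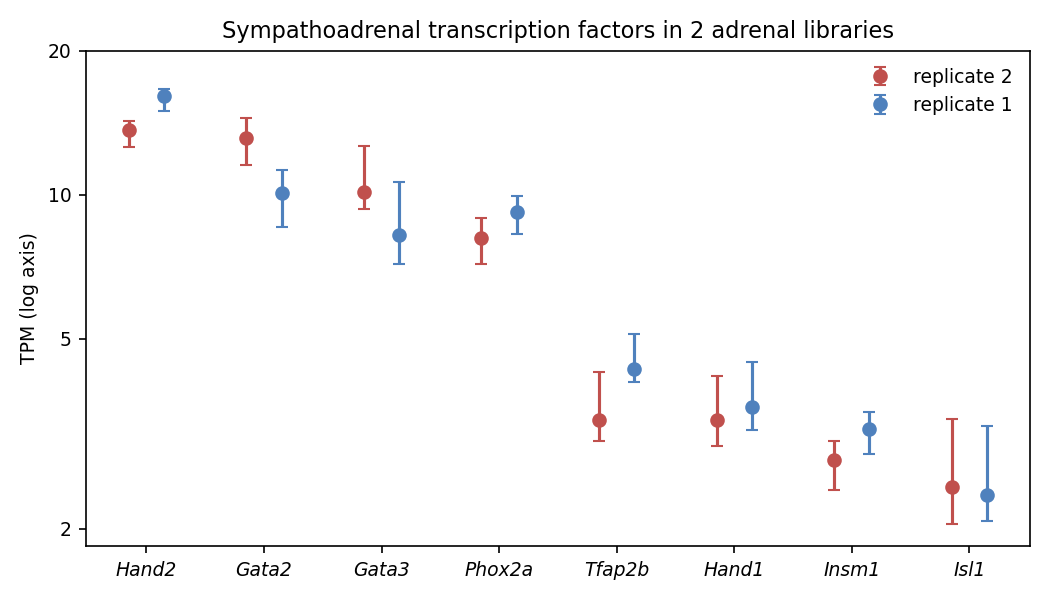
TPM of each factor (log axis) in replicate 2 (red) and replicate 1 (blue), with the deposited lower and upper TPM bounds of that library as bars, in order of mean level. Only Hand2 and Gata2 have bounds that do not overlap between the animals, and they differ in opposite directions.

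Hand2 and Hand1 encode related basic helix-loop-helix proteins, which bind DNA as dimers with E proteins. Hand2 is needed for noradrenergic differentiation of sympathetic precursors, and Hand1 is best known for its roles in the placenta and heart. Hand2 (ENSMUSG00000038193.4, chr8:57320983-57324633, plus strand, mm10) was the highest of the 8, at 13.7 TPM in replicate 2 against 16.1 TPM in replicate 1, a mean of 14.9 ± 1.72 TPM (SD, n = 2). These values rest on 1017 counts in replicate 2 and 1410 in replicate 1. The deposited bounds, 12.6 to 14.2 TPM in replicate 2 and 15.0 to 16.6 TPM in replicate 1, did not overlap. On depth-scaled counts Hand2 had a log2 ratio of replicate 2 over replicate 1 of -0.31 (95% counting interval -0.43 to -0.19), so it was lower in replicate 2.

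Hand1 (chr11:57828705-57832818, minus strand) stood at 3.37 TPM in replicate 2 against 3.60 TPM in replicate 1, a mean of 3.49 ± 0.163 TPM (SD, n = 2), from 201 and 252 counts in the same order. Its log2 ratio of -0.17 had a counting interval of -0.44 to 0.11, which includes 0. Hand2 exceeded Hand1 4.06-fold in replicate 2 and 4.47-fold in replicate 1, on TPM, so the order within the HAND pair was the same in both animals. In the index-based table, which used an index of transcripts in place of an alignment, the excess was 3.80-fold in replicate 2 and 3.24-fold in replicate 1.

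Hand2 shares its start region with Hand2os1, a noncoding RNA gene on the opposite strand (chr8:57281117-57324233, minus strand). The 250 bases upstream of the Hand2 start are shown because 13 of the 37 annotated Hand2os1 transcripts start inside them, between 124 and 248 bases upstream of Hand2 and running the other way. They are taken from RefSeq, build GRCm38.p6, chr8:57320733-57320982, written along the plus strand in the direction of Hand2. Capitals mark matches, on either strand, to the E box CANNTG, the GATA letters AGATAA or TGATAA, and the homeodomain core TAATTA.
Hand2: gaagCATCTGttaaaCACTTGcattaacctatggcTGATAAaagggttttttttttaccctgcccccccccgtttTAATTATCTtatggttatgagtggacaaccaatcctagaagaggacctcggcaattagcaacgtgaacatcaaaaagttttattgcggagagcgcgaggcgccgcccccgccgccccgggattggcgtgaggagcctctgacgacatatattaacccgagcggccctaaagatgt
The window holds 2 matches to CANNTG, at 246 and 235 bases upstream of the start, and such a match occurs in 66.2% of 32851 RefSeq windows of the same length. It holds 2 matches to AGATAA or TGATAA, present in 16.6% of windows, at 215 bases upstream and, as TTATCT on the other strand, at 172 bases upstream. The single TAATTA, present in 4.84% of windows, lies at 175 bases upstream and overlaps that TTATCT. These matches are a description of the letters and not evidence of binding.

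Hand2os1 reached 25.6 TPM in replicate 2 and 18.2 TPM in replicate 1, a mean of 21.9 ± 5.23 TPM (SD, n = 2), from 956 counts in replicate 2 and 788 in replicate 1. It was higher in replicate 2, with a log2 ratio of 0.44 (counting interval 0.30 to 0.58) and deposited bounds that did not overlap, while Hand2 was lower there. The ratio of Hand2os1 to Hand2 was 1.87 in replicate 2 and 1.13 in replicate 1, and by the index-based estimates it was 2.50 in replicate 2 and 1.502 in replicate 1. The exons of the neighbours share 461 bases on opposite strands. The library kit is directional, but nothing read for this work states that strand entered the counting, so reads from the shared bases cannot be assigned with certainty. Only 3 Hand2os1 transcripts share exon bases with Hand2, and they took 1 count in replicate 2 and 0 in replicate 1 (by the index-based estimates, 13.7 and 32.7 in the same order). Retained-intron transcripts held 50.1% of Hand2os1 TPM in replicate 2 and 44.5% in replicate 1.

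**Figure D2:**
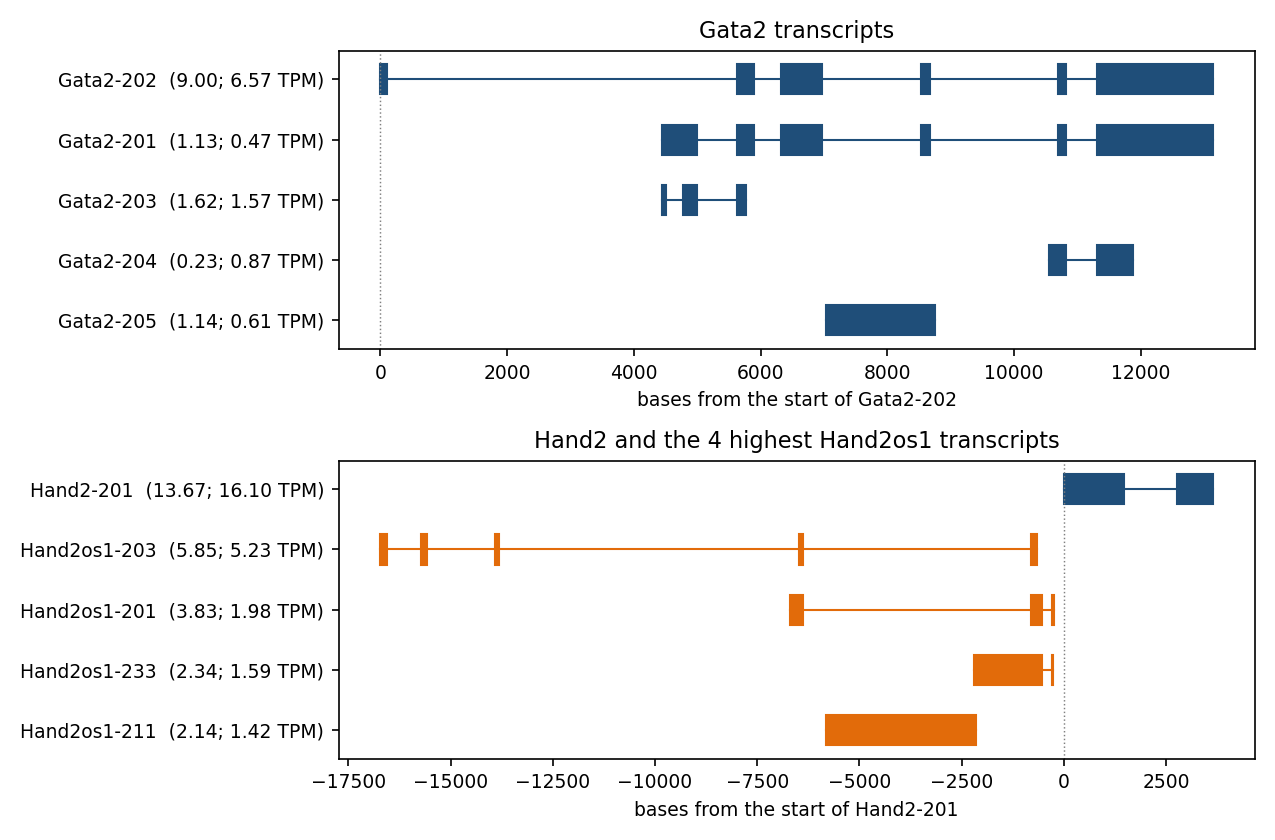
Exons (boxes) and introns (lines) by distance in bases from the start of Gata2-202 (upper panel) and of Hand2-201 (lower panel); blue is the plus strand and orange the minus strand, and the numbers are TPM in replicate 2 and then replicate 1. The upper panel shows the distal and proximal Gata2 starts 4443 bases apart, and the lower panel shows Hand2os1 leading away from the Hand2 start.

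Gata2 and Gata3 encode zinc finger proteins that bind the GATA sequence. Gata3 is needed for Th expression in the sympathoadrenal lineage of mouse embryos, and Gata2 is a regulator of blood progenitors, mast cells and endothelium that is also found in sympathetic precursors. Gata2 (chr6:88193891-88207032, plus strand) stood at 13.1 TPM in replicate 2 against 10.1 TPM in replicate 1, a mean of 11.6 ± 2.15 TPM (SD, n = 2). It had more counts in replicate 2 (1117) than in replicate 1 (922), although the library of replicate 2 was the smaller one. The log2 ratio was 0.44 (counting interval 0.31 to 0.56), and the deposited bounds of 11.6 to 14.5 TPM in replicate 2 and 8.56 to 11.2 TPM in replicate 1 did not overlap. Gata3 (chr2:9857078-9890034, minus strand) also stood higher in replicate 2, at 10.1 TPM against 8.22 TPM in replicate 1, a mean of 9.18 ± 1.35 TPM (SD, n = 2), from 862 and 753 counts in the same order. Its log2 ratio was 0.35 (counting interval 0.21 to 0.50), and its deposited bounds overlapped.

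Gata2 and Gata3 kept nearly the same proportion in both animals, with a ratio of Gata2 to Gata3 of 1.30 in replicate 2 and 1.23 in replicate 1 on TPM. In the index-based table that ratio was 1.78 in replicate 2 and 1.75 in replicate 1, so its size depends on the table more than on the animal. Gata6, a GATA factor of steroid-producing cortical cells, was higher than both (30.9 TPM in replicate 2, 23.1 TPM in replicate 1), and it too stood higher in replicate 2 (log2 ratio 0.34, bounds apart). Gata6 exceeded Gata2 2.35-fold in replicate 2 and 2.29-fold in replicate 1. Gata4 was far lower (1.04 TPM in replicate 2, 1.96 TPM in replicate 1), and Gata1 and Gata5 had at most 3 counts in either library.

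The Gata2 gene has a distal and a proximal start, 4443 bases apart. The distal first exon defines Gata2-202, which held 68.6% of Gata2 TPM in replicate 2 and 65.1% in replicate 1. The proximal start, used by Gata2-201 and the short Gata2-203, held 20.96% in replicate 2 and 20.2% in replicate 1. Gata2-201 and Gata2-202 differ in their first exon and are both annotated with an open reading frame of 480 codons. By expected counts the distal transcript took 80.9% of the gene in replicate 2 and 84.1% in replicate 1. The index-based table gave it 46.7% of TPM in replicate 2 and 43.8% in replicate 1, and the proximal start 36.4% and 32.3% in the same order. Gata2-202 led in both tables, but its share of TPM differed more between tables than between animals. Gata2-203, annotated with 34 codons, held 12.3% of TPM in replicate 2 and 15.6% in replicate 1 on only 17.3 and 19.7 counts in the same order, TPM being a value per length. The retained-intron transcripts Gata2-204 and Gata2-205 together held 10.4% in replicate 2 and 14.7% in replicate 1.

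The 250 bases upstream of the distal Gata2 start and of the main Gata3 start are shown because the RefSeq starts equal the starts of Gata2-202 and Gata3-201, the transcripts that led each gene. They come from RefSeq, build GRCm38.p6: Gata2 at chr6:88193641-88193890 on the plus strand and Gata3 at chr2:9878601-9878850 on the minus strand, each written in the direction of its gene. Capitals mark matches to the AP-2 letters GCCNNNGGC, the kind of site that proteins of the Tfap2b family bind.
Gata2: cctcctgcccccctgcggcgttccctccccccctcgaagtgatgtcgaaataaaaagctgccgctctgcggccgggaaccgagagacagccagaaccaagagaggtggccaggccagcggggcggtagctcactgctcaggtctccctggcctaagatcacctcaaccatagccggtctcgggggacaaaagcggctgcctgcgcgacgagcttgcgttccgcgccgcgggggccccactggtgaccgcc
Gata3: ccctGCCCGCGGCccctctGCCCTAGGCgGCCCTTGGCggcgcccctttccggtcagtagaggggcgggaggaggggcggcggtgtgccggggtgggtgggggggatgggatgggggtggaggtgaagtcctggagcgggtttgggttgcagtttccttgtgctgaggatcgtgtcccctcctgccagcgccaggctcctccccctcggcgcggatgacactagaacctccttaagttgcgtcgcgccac
The Gata3 window holds 3 matches to GCCNNNGGC, at 246, 231 and 221 bases upstream, and a match occurs in 13.7% of the 32851 windows. The distal Gata2 window shown holds none of the 4 motifs searched, and a second RefSeq window of Gata2, at chr6:88198414-88198663 (GC 74.0%), holds 1 GCCNNNGGC. The GC content of the distal window is 67.2% and that of the Gata3 window is 70.0%, against 49.2% for the Hand2 window and a median of 52.4% over all windows. Windows were found for 6 of the 8 genes. In the others shown by count only, the Isl1 window (GC 71.2%) holds 1 CANNTG and 1 TGATAA, the Tfap2b window (GC 46.4%, at the start of Tfap2b-202) holds 1 CANNTG, and the Phox2a window (GC 70.4%) holds no match to any of the 4.

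Gata3-201, the transcript with an annotated open reading frame of 443 codons, held 80.4% of Gata3 TPM in replicate 2 and 73.3% in replicate 1. By counts it took 97.3% in replicate 2 and 97.0% in replicate 1. The noncoding Gata3-205 was listed at 6.52% of TPM in replicate 2 and 20.05% in replicate 1, yet these shares rest on 3.11 and 9.16 expected counts in the same order, and the index-based table gave it 0 in both animals. The coding transcript Gata3-202, which starts far upstream, was at 0 in the alignment-based table and at 6.04% in replicate 2 and 11.0% in replicate 1 in the index-based table. Gata3-206, another noncoding transcript, held 7.50% in replicate 2 and 6.68% in replicate 1. The small genes that overlap Gata3 were near the limit of detection: 4930412O13Rik had 11 counts in replicate 2 and 7 in replicate 1, 9230102O04Rik 2 in each and Gm13256 1 in replicate 2 and 0 in replicate 1. Gm38708, a noncoding RNA gene upstream of Gata2, had 10 counts in replicate 2 and 4 in replicate 1.

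Phox2a encodes a paired-like homeodomain protein that activates the Dbh promoter. Phox2a (chr7:101818313-101822726, plus strand) stood at 8.12 TPM in replicate 2 against 9.19 TPM in replicate 1, a mean of 8.66 ± 0.757 TPM (SD, n = 2), from 372 and 511 counts in the same order. Its log2 ratio was -0.30 (counting interval -0.49 to -0.10). Phox2a amounted to 0.594 of Hand2 in replicate 2 and 0.571 in replicate 1 on TPM, and to 0.612 and 0.639 in the index-based table in the same order.

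Phox2a-201, with 280 codons, held 87.7% of Phox2a TPM in replicate 2 and 91.9% in replicate 1, and the retained-intron transcript Phox2a-202 held the rest, 12.3% in replicate 2 and 8.05% in replicate 1. The index-based table gave Phox2a-201 86.7% in replicate 2 and 87.7% in replicate 1. At its end Phox2a overlaps Inppl1, which encodes an inositol phosphatase, by 95 exon bases on the opposite strand. Inppl1 was the more abundant (33.2 TPM in replicate 2, 36.0 TPM in replicate 1), with a log2 ratio on counts of 0.07, so Phox2a reads in those bases are uncertain too.

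Insm1 and Isl1 were the lowest of the 8. Insm1 encodes a zinc finger protein of endocrine cells and is needed for chromaffin cells to complete their differentiation in mice. Insm1 (chr2:146221921-146225020, plus strand), a gene with a single exon and 1 annotated transcript of 521 codons, stood at 2.78 TPM in replicate 2 against 3.23 TPM in replicate 1, a mean of 3.01 ± 0.318 TPM (SD, n = 2). It had 276 counts in replicate 2 and 377 in replicate 1, and a log2 ratio of -0.29 (counting interval -0.52 to -0.06). Its relative Insm2 was lower (0.780 TPM in replicate 2, 1.28 TPM in replicate 1), so that Insm1 exceeded Insm2 3.56-fold in replicate 2 and 2.52-fold in replicate 1.

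Isl1 encodes a LIM homeodomain protein of sympathetic and motor neurons, heart and islets. Isl1 (chr13:116298281-116309689, minus strand) stood at 2.45 TPM in replicate 2 against 2.35 TPM in replicate 1, a mean of 2.40 ± 0.0707 TPM (SD, n = 2), from 144 and 172 counts in the same order. Its log2 ratio on scaled counts was -0.10, with a counting interval of -0.43 to 0.23 that includes 0, and the sign turned in 2 of 8 settings, TPM and FPKM. Isl1 was also the gene whose transcripts were hardest to place. Isl1-201, with 349 codons, held 50.6% of TPM in replicate 2 and 58.5% in replicate 1, and Isl1-202, with 326 codons, held 15.9% and 21.2% in the same order. The noncoding Isl1-204 was at 16.3% in replicate 2 and 0% in replicate 1, and the retained-intron Isl1-203 was at 0% in replicate 2 and 10.6% in replicate 1, each on under 7 counts. Isl1-205, another retained-intron transcript, held 17.1% in replicate 2 and 9.75% in replicate 1. Its relative Isl2 had 1 count in replicate 2 and 0 in replicate 1.

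Tfap2b encodes AP-2 beta, a factor of noradrenergic cells and kidney. Tfap2b (chr1:19208914-19238576, plus strand) stood at 3.38 TPM in replicate 2 against 4.31 TPM in replicate 1, a mean of 3.85 ± 0.658 TPM (SD, n = 2). It had 451 counts in replicate 2 and 777 in replicate 1, and with a log2 ratio of -0.62 (counting interval -0.80 to -0.46) it differed most between the animals of the 8 on scaled counts. A ratio at least that far from 0 was seen in 5.38% of 12645 tested genes, those with a mean count of 100 or more. On TPM the log2 ratio was -0.34, smaller than the 0.38 of Gata2 on that scale, and the deposited TPM bounds of 3.05 to 4.25 in replicate 2 and 4.05 to 5.11 in replicate 1 overlapped.

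The TPM shares of Tfap2b transcripts also differed between the libraries. Transcripts from the upstream start, Tfap2b-201 and Tfap2b-204, held 65.7% of TPM in replicate 2 and 74.2% in replicate 1, and Tfap2b-202, which starts 3140 bases downstream, held 28.7% and 25.8% in the same order. The index-based table gave the upstream start 71.8% in replicate 2 and 77.0% in replicate 1. By expected counts the upstream start took 86.2% in replicate 2 and 89.8% in replicate 1, a smaller difference. The retained-intron Tfap2b-203 held 5.62% of TPM in replicate 2 on only 3.02 counts, and the index-based table gave it 0. Tfap2b-201 is annotated with 459 codons, Tfap2b-204 with 453 and Tfap2b-202 with 441. Of the whole AP-2 family only Tfap2b was above the limit of detection in both animals: Tfap2a had 0 counts in replicate 2 and 7 in replicate 1, Tfap2c and Tfap2e had 0 and 1 in the same order, and Tfap2d had 0 in both. The noncoding neighbour Gm28340 was at 0 in both.

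**Figure D3:**
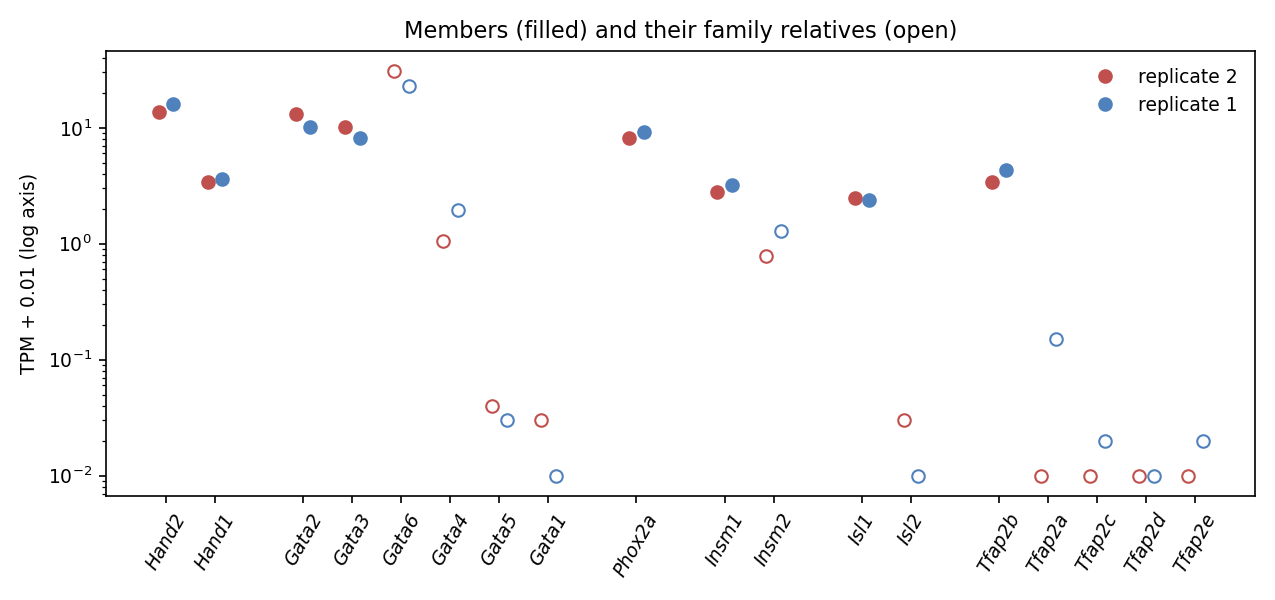
TPM plus 0.01 (log axis) of the 8 factors (filled) and of the relatives in their families (open) in replicate 2 (red) and replicate 1 (blue). The factors sit between 2.35 and 16.1 TPM, Gata6 is the one relative plotted above 16.1 TPM, and the other AP-2 genes lie at or near 0.

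Of the 6 factors with more than 1 annotated transcript, 6 had the same leading transcript in both animals and both kinds of table. These leaders were Gata2-202, Gata3-201, Hand1-201, Isl1-201, Phox2a-201 and Tfap2b-201. Their shares were less settled than their rank. Hand1-201 held 100% of TPM in replicate 2 and 97.2% in replicate 1 in the alignment-based table, and 100% and 66.6% in the index-based table in the same order, where Hand1-202 took 22.7% and Hand1-203 10.7% in replicate 1. Hand1-201 and Hand1-203 are both annotated with 216 codons. Tfap2b-201 alone held 54.7% in replicate 2 and 69.8% in replicate 1. Of the 28 transcripts, 22 reached 10% of their gene in at least 1 library of either table, and 2 (Gata3-203 and Tfap2b-205) were listed at 0 throughout. All 8 genes had whole-number counts at gene level within a tolerance of 0.005, as did 82.1% of tested genes. In the index-based table gene-level counts need not be whole, as for the single transcript of Insm1 (304.3 counts in replicate 2, 416.8 in replicate 1).

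**Figure D4:**
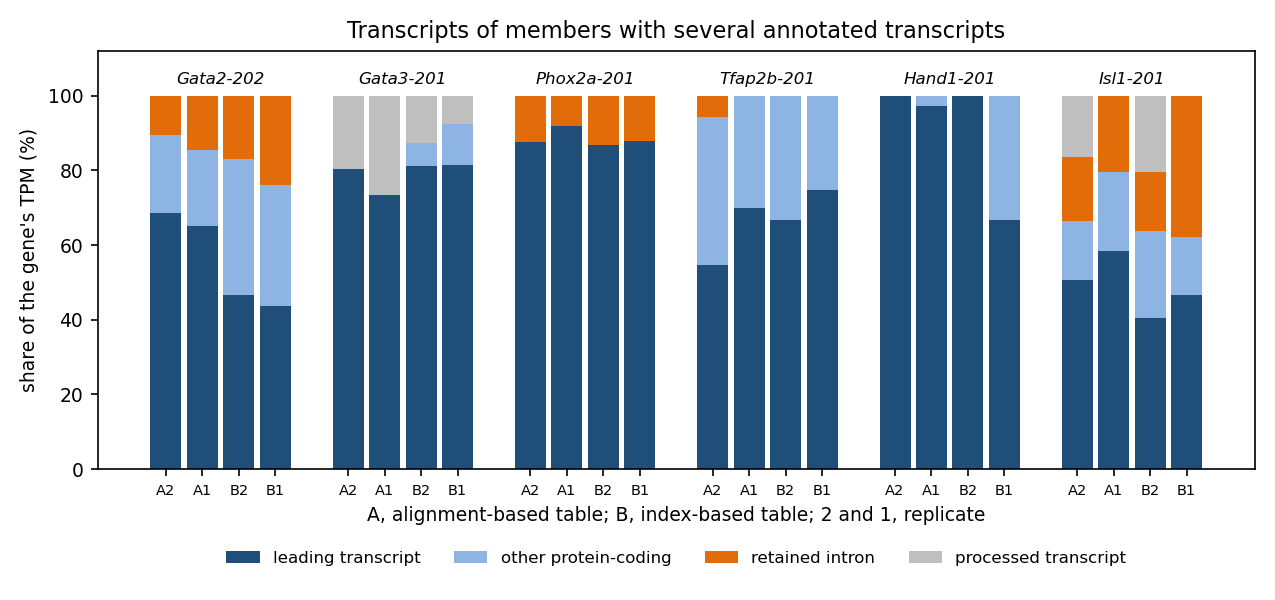
Share of each gene's TPM (%) held by the leading transcript named above the bars, other protein-coding, retained-intron and processed transcripts, in replicate 2 and then replicate 1 of the alignment-based table (A2, A1) and the index-based table (B2, B1). The leader is the same in all 4 bars of each gene, while its share ranges from 40.5% for Isl1 to 100% for Hand1.

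Between the animals, 6 of the 8 factors were lower in replicate 2 and 2 (Gata2 and Gata3) were higher. Among all tested genes 52.8% were lower in replicate 2. The median log2 ratio was -0.23 over the 8 factors and -0.01 over the 12645 tested genes, whose ratios had an SD of 0.37. A 2-fold difference with deposited bounds apart was found for 0 of the 8 factors and for 1.17% of tested genes. Deposited bounds without overlap, at any fold, were found for 2 of 8, against 27.4% of tested genes. The counting interval excluded 0 for 6 of 8, all but Hand1 and Isl1, against 53.9% of tested genes. With 8 genes such counts are coarse, and nothing particular to the factors was read from them. With 1 library per animal and 1 group there is no replicate behind a difference between animals, and no p-value was computed.

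**Figure D5:**
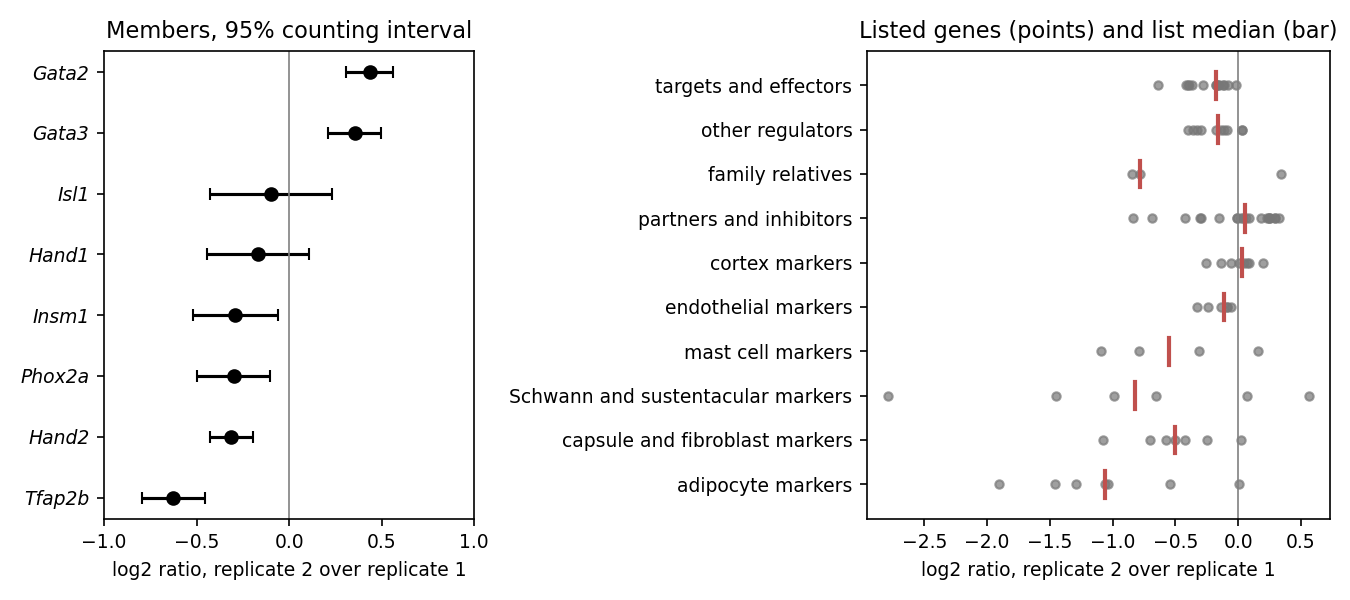
Log2 ratio of replicate 2 over replicate 1 on scaled counts for each factor, with its 95% counting interval (left), and for listed genes with a mean count of 10 or more (right, points) with the median of each list (bar). Gata2 and Gata3 lie above 0 and the other 6 factors below it, while the adipocyte markers have a median of -1.06.

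The genes that these factors are known to control, with others of the same cells, gave a check of the tissue and a scale for the levels. Of 15 target and effector genes, 14 were at 1 TPM or more in both animals, with a median of 71.7 TPM. The highest were Chga (chromogranin A) at 752 TPM in replicate 2 against 774 TPM in replicate 1, Chgb (chromogranin B) at 496 and 617 TPM, and Scg2 (secretogranin II) at 343 and 367 TPM, each in the same order. Th stood at 296 TPM in replicate 2 against 363 TPM in replicate 1, and Hand2 amounted to 0.0461 of Th in replicate 2 and 0.0444 in replicate 1 on TPM. Phox2a amounted to 0.0274 of Th in replicate 2 and 0.0253 in replicate 1. Gata2 and Gata3 stood less evenly against Th. Gata2 amounted to 0.0443 of Th in replicate 2 and 0.0278 in replicate 1, and Gata3 to 0.0342 and 0.0227 in the same order. Th was the only target used as a denominator and was chosen after its values were seen. Its log2 ratio of -0.37 lay further from 0 than the list median, so these proportions need not hold for other targets. All 15 targets and effectors had log2 ratios below 0 on scaled counts, with a median of -0.17. Among all tested genes 52.8% were below 0. On TPM, Ddc (29.3 in replicate 2, 27.7 in replicate 1) and Slc6a2 (2.16 and 2.05) were higher in replicate 2. None of the 15 was 2-fold apart with separate bounds, against 1.17% of tested genes. Separate bounds with the lower values in replicate 2 were found for 9, and with the higher values there for 0. Among these, Th, Chga, Chgb and Scg2 had TPM values above their own upper bounds in both libraries. Over all tested genes 27.4% had separate bounds in either direction.

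Among 11 other regulators of the lineage, 10 were at 1 TPM or more in both animals, and 8 of the 10 with a mean count of 10 or more had ratios below 0, with a median of -0.16. Meis2, a homeodomain cofactor, stood at 83.0 TPM in replicate 2 against 84.9 TPM in replicate 1, Epas1 (HIF-2 alpha) at 71.4 and 74.5 TPM, and Zeb2, a zinc finger repressor, at 49.2 and 46.6 TPM, in the same order. None of these 11 was counted as 2-fold apart. The 10 family relatives had a median of 0.0175 TPM, and of the 3 with enough counts 2 had ratios below 0, with Gata6 the exception and a list median of -0.78.

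Partners and inhibitors of the factors were abundant in the gland. Of 20 such genes, 18 were at 1 TPM or more in both animals, 12 had ratios above 0 and 8 below, with a median of 0.05, and 0 were called 2-fold apart. Id2, which encodes a helix-loop-helix protein that binds E proteins and keeps them from DNA, stood at 199 TPM in replicate 2 against 157 TPM in replicate 1. Tcf4, an E protein, stood at 63.7 TPM in replicate 2 against 56.2 TPM in replicate 1, and Lmo4, a LIM-only protein, at 33.2 and 29.9 TPM in the same order. Zfpm1 and Zfpm2, the FOG cofactors of GATA proteins, stood at 6.52 and 4.00 TPM in replicate 2 and at 5.96 and 2.97 TPM in replicate 1. Kdm1a and Rcor1, parts of a histone demethylase complex that Insm1 recruits, stood at 17.4 and 16.4 TPM in replicate 2 and at 15.9 and 18.0 TPM in replicate 1.

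Markers of other cells that use the same factors were measured beside them. Endothelial markers, where Gata2 also acts, summed to 192 TPM in replicate 2 and 199 TPM in replicate 1, with 6 of 6 ratios below 0 and a median of -0.11. Mast cell markers summed to 3.62 TPM in replicate 2 and 4.50 TPM in replicate 1, and T cell and innate lymphoid markers to 1.16 and 1.39 TPM in the same order, with 0 of 6 at 1 TPM or more in both animals in either list. None of these 3 sums was higher in replicate 2, where Gata2 and Gata3 were higher. Single genes stood higher there, such as Cd3d with 0.260 TPM in replicate 2 against 0.130 TPM in replicate 1. Of the 4 mast cell markers with a mean count of 10 or more, 3 had log2 ratios below 0. The other was Kit, with a log2 ratio of 0.16 on 126 counts in each library. Kit was the only mast cell marker with a mean count of 100 or more. The 4 T cell and innate lymphoid markers with a mean count of 10 or more split into 2 below 0 and 2 above. The lower T cell sum rests on Il1rl1, with 0.0600 TPM in replicate 2 against 0.430 TPM in replicate 1. The part of these cells in the GATA difference was not tested. Cortex markers summed to 27184 TPM in replicate 2 and 26003 TPM in replicate 1, with 5 of 8 ratios above 0 and a median of 0.03. Of the 6 islet markers 5 were at 0 in both animals, Ins1 and Ins2 among them, with sums of 0 TPM in replicate 2 and 0.0800 TPM in replicate 1. Of the 6 kidney markers 3 were at 0 in both, with sums of 0.790 and 1.10 TPM in the same order. Neuron markers summed to 4.62 TPM in replicate 2 and 5.17 TPM in replicate 1, with Chat and Slc18a3 at 0 in both.

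Markers of fat, vessel wall, capsule and glia differed further between the libraries. Adipocyte markers summed to 481 TPM in replicate 2 and 958 TPM in replicate 1, with 5 of 7 called 2-fold apart (Adipoq, Fabp4, Cidea, Ucp1 and Pparg). Smooth muscle markers summed to 52.8 TPM in replicate 2 and 76.0 TPM in replicate 1, with a median log2 ratio of -0.71 and Acta2 and Myh11 called. Capsule and fibroblast markers summed to 125 TPM in replicate 2 and 170 TPM in replicate 1, with a median of -0.50 and Col3a1 called. Schwann and sustentacular markers summed to 6.71 TPM in replicate 2 and 9.75 TPM in replicate 1, with a median of -0.82 and S100b called. On scaled counts Hand2, Phox2a, Insm1, Tfap2b and the listed targets and effectors were lower in the same library as these markers. The part of those cells in the differences was not tested.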

How the data were processed

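Expected counts, estimates that need not be whole, were deposited unscaled per the file headers. The authors scaled TPM over every feature of a library, with spike-ins and tRNAs among them, FPKM was deposited as a length- and depth-scaled unit, and the percent of its gene held by each transcript is a deposited column that was recomputed here from TPM. The signal columns deposited beside TPM are its lower and upper bounds within 1 library, whose level is not given in the file. For many low genes, and for some very abundant ones such as Chga and Star, TPM lies outside these bounds, but all 8 members lie inside theirs. One gene table and one transcript table per library derive from an alignment, and another transcript table from a transcript index, on mm10 with GENCODE M21, per the deposited file notes. Programs, strand use and the handling of CAST reads were not given in the sources used here. The labels give separate animal numbers but 1 donor code, so the animals were taken as separate from their numbers.

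The members and gene lists were chosen with earlier results of these data known. Rows of tRNAs, spike-ins and phiX174 (0.245% of counts in replicate 2, 0.226% in replicate 1) were left out of gene totals. Counts were rounded to whole numbers for edgeR 4.0.16 in R 4.3.3, whose TMM factors were 1.03 for replicate 2 and 0.973 for replicate 1. For a log2 ratio, TMM-scaled counts plus 0.5 of replicate 2 were divided by those of replicate 1, with exact binomial (Clopper-Pearson) 95% counting intervals. A gene was called at 2-fold or more, a mean count of 100 or more and TPM bounds apart. Named genes were the 8 members, the 3 highest and all called genes of each list (for marker lists of other cells, only the called ones and those at 0), transcripts at 10% or more of a member, and neighbours within 5000 bases. Th, the cofactors of GATA and Insm1 proteins, the low relatives, Kit, Cd3d and Il1rl1 were added after their values were seen. Certain genes are not reported here and were left out of the lists. Promoter sequences were RefSeq windows of 250 bases, searched on both strands. Steps were tested on simulated data and used Python 3.11.15 with scipy 1.17.1, matplotlib 3.10.9, pandas 2.3.3 and numpy 2.4.6. The alternatives were DESeq2 1.42.0 size factors, library totals, spike-in totals, FPKM, the index-based table, rescaled TPM, other limits and pseudocounts, and each library left out.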

Additional observations from a re-analysis of the deposited data

How the results depend on the processing

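The median level of the 8 factors was 6.25 TPM. It was 5.49 TPM in the index-based table and 17.6 TPM when TPM was rescaled over nuclear protein-coding genes, and with 1 library left out it lay between 5.75 TPM (without replicate 1) and 6.27 TPM (without replicate 2). The values 5.49, 17.6 and 5.75 TPM lay more than 1 SD between the animals (0.364 TPM) from 6.25 TPM. The 5.75 TPM is the median of replicate 2 itself, so it is part of that SD. Rescaling changes the denominator for every protein-coding gene, so 17.6 TPM cannot be set beside the unscaled median of protein-coding genes. Under the alternatives run for each, the number of factors at 1 TPM or more stayed at 8, the number called at 0 and the number with 1 leading transcript at 6, and the median log2 ratio lay between -0.27 and -0.13. The index-based table turned the order of the mean levels of Gata2 and Hand2, of Gata3 and Phox2a and of Tfap2b and Hand1. Within single animals the order turned for Tfap2b and Hand1 in both, for Gata2 and Hand2 in replicate 2 only, and for Gata3 and Phox2a in neither. The cause was not tested. Across 8 settings, of which TPM and FPKM were chosen after seeing the data, the log2 ratio of Isl1 lay between -0.17 and 0.06 and that of Tfap2b between -0.66 and -0.34, and the other 6 factors and Tfap2b kept their sign.

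No factor was called under any limit or scaling. The number of all genes called was 148 (65 higher and 83 lower in replicate 2), 536 (383 and 153) with a mean count of 10 or more, 667 (493 and 174) with no count limit and 640 (325 and 315) at 1.5-fold. Library totals gave 90 higher and 57 lower. No paired analysis was possible because the labels give 1 group.

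Several transcript shares rest on under 20 counts. Shares with more counts also moved with the table, as Gata2-202 did at 68.6% and 46.7% of TPM in replicate 2. Intervals cover counting error only.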
